A study of Mus musculus with 2 samples.

Results

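Genes of the NRF2 response, the antioxidant and detoxification programme that cells switch on under oxidative stress, were followed in single cells of mouse back skin. They were taken by symbol from the feature tables and made up 10 of 31053 features. The set holds Nfe2l2, which encodes NRF2 itself, the glutathione genes Gclc, Gclm and Gpx2, the thioredoxin genes Txn1, Txnrd1, Prdx1 and Srxn1, and the classical targets Nqo1 and Hmox1.

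The study asked how raised miR-205, a microRNA of skin epithelium, changes the transcriptome of resting skin, and prepared a 10x Genomics library from each of 2 sex-matched littermates, so that each comparison below sets 1 mouse against 1 and has no replicate check. Both mice were of the C57BL/6 strain per the labels, carried K14-H2BGFP and were sampled at postnatal day 53. The miR-205 inducible mouse also carried Krt14-rtTA and pTRE2-miR-205, in which the Krt14 promoter drives the transgene in skin epithelium, so its dermal cells share the animal and the diet but not the driver, and the transgene was made by injection into FVB embryos per the study's methods. Per the protocol both mice ate doxycycline for 4 days from postnatal day 49, but the control is entered as untreated in its characteristics, and the sources used here do not say whether it carried Krt14-rtTA. Epidermal, follicle and dermal cells were sorted into a 3:5:2 mix, so that shares of cell types follow the sort.

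The control library held 4545 barcodes and 55465594 unique molecular identifiers (UMIs, one per captured transcript) and the induced library 4264 barcodes and 49733560 UMIs. Of these barcodes, 3936 and 3628 were kept, with medians of 12198.5 and 11752.5 UMIs per cell and 4.94% and 4.95% mitochondrial UMIs. Only 11 barcodes occurred in both libraries, 5 of them among kept cells. The endogenous miR-205 host transcript 4631405K08Rik was at 103 CPM (UMIs of a gene scaled to all UMIs of the same cells) in kept control cells and 106 CPM in kept induced cells. The transgene need not be read through this transcript, so it does not check the labels. Clustering that used none of the 121 genes of the result lists, although marker genes such as Acta2 and Lgr5 could enter it, gave 25 clusters. In 16 of them both libraries had at least 50 cells, and 14 of these were epithelial. A cluster is called X-like where its markers met the naming rule and is given by number otherwise. The resting stem cell pool of the bulge was found as cluster 2, called HF-SC-like after hair follicle stem cells, with all 6 markers of its class raised among 321 control and 273 induced cells. The hair germ (HG), which holds primed progenitors beneath that pool, matched no cluster under the naming rule. Cluster 7 had 4 of 5 HG markers raised (Lgr5, Cdh3, Gli1 and Lef1), but the smooth muscle gene Tagln was among its top genes, and it is reported by number with 197 control and 208 induced cells. The inner bulge-like cluster 3 also had 5 of 6 HF-SC markers raised. The dermal papilla-like cluster 9 had only 3 of 6 markers of its class raised (Rspo3, Hhip and Crabp1) and 0 among its top genes. It held 142 control and 221 induced cells.

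In unstressed cells NRF2 protein is bound by KEAP1, which brings it to a CUL3 ubiquitin ligase for degradation. Oxidants and electrophiles modify KEAP1, NRF2 then accumulates, and with a small MAF partner it binds antioxidant response elements near its target genes, where BACH1 can compete with it. The targets supply glutathione, keep thioredoxin and peroxiredoxins reduced, and clear quinones and heme. In skin this system protects keratinocytes against ultraviolet light and chemicals. Because NRF2 is controlled mainly as a protein, its transcript level does not report its activity.

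To show where such elements could lie, 300 bases around transcript starts of each gene (250 before and 50 after, RefSeq, build GRCm38.p6) were searched on both strands for TGACNNNGC, the core of the antioxidant response element. RefSeq promoters were matched for 8 of the 10 genes, and Hmox1 and Gclc were not. A match lay in 5 of the 8, beside 14.0% of 27025 genes with a promoter. The windows below hold these 5 matches and are printed on the strand of the gene with the matched letters in capitals. The start that a window belongs to need not be the outermost start of the gene, and the Txnrd1 window lies inside the gene as positioned below. The match in Prdx1 overlaps an AP-1 site (TGACTCA or TGAGTCA on either strand), and AP-1 is a factor of the immediate early response. A match is a description of letters, not a binding site.
Nfe2l2, chr2:75704879-75704913, minus strand: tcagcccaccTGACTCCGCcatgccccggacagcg
Srxn1, chr2:152105536-152105573, plus strand: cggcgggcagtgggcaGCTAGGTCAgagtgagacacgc
Gclm, chr3:122245407-122245447, plus strand: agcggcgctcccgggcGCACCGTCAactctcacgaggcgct
Prdx1, chr4:116685450-116685490, plus strand: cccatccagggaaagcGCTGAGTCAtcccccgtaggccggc
Txnrd1, chr10:82859098-82859138, plus strand: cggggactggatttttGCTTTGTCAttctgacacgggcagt

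The induced microRNA and its only perfect seed match among the 10 genes are shown next. Such a match in the 3′ untranslated region (UTR) of a transcript is 1 kind of site that miR-205 can bind directly. Only perfect matches in the longest UTR of each gene were searched, so direct binding of the other genes was not tested. Capitals mark the seed (bases 2 to 8) of miR-205-5p, which lies at chr1:193507503-193507524 on the minus strand (GRCm38.p6), and its complement ATGAAGG in Gclm. The Gclm match lies in the last exon at chr3:121972594-121972600 on the plus strand of build NCBIM37, at base 3359 of a 3667-base UTR. Of 19915 genes with an annotated 3′ UTR, 10.4% hold a match.
miR-205-5p: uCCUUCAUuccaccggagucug
Gclm: cataaaattgATGAAGGgatgtggcag
Whether this match affects Gclm was not tested. Pooled over the epithelial clusters Gclm was at 57.3 CPM in the control and 59.9 CPM in the induced library, a log2 ratio of 0.07 with a 95% interval of −0.01 to 0.15. In HF-SC-like cells the ratio was −0.37 (−0.68 to −0.08), and over the 16 clusters it was above 0 in 9 and below 0 in 7. All ratios below are log2 of induced over control CPM with 0.5 UMIs added, and intervals are exact and cover counting error only.

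Over the 16 clusters the 10 genes gave 139 gene and cluster pairs with at least 20 UMIs, the depth asked of a comparison. Of these, 6 pairs were at least 1.5-fold higher in the induced library (4.32%, beside 9.97% of 137527 pairs over all genes) and 23 were at least 1.5-fold lower (16.5%, beside 7.34%). The median log2 ratio was −0.22, beside 0.02 for all genes. Lower values were spread over Srxn1, Hmox1, Nqo1, Gclm, Gclc, Prdx1 and Nfe2l2, and the highest single ratio was that of Gpx2. Pairs of 1 gene share their libraries and are not replicates.

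**Figure D1:**
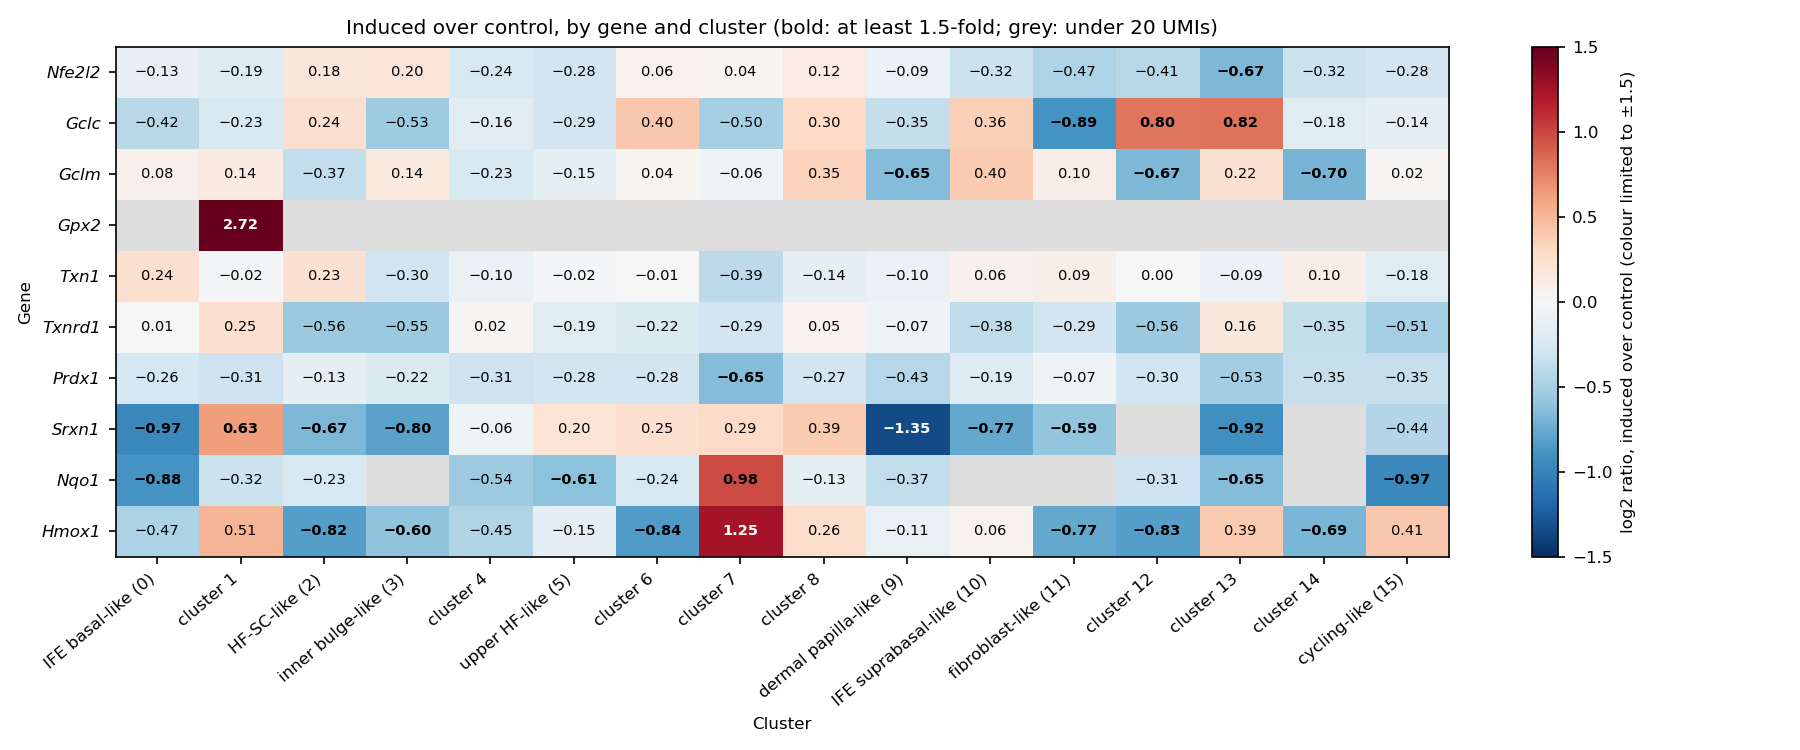
Log2 ratio of induced over control for each of the 10 genes (rows) in each of the 16 clusters (columns, cluster number in parentheses), with 1 library per group. Bold values are at least 1.5-fold and grey cells had fewer than 20 UMIs. Srxn1 and Hmox1 hold most of the low values, and Hmox1 and Nqo1 are high in cluster 7.

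Nfe2l2 (ENSMUSG00000015839, chr2:75675513-75704663, as all gene positions here in GRCm38.p6 of RefSeq), the transcription factor, differed little. In HF-SC-like cells it was at 203 CPM (interval 188 to 219) in the control and 229 CPM (212 to 247) in the induced library, with a log2 ratio of 0.18 (interval 0.02 to 0.33). In cluster 7 it was at 183 and 187 CPM, 0.04 (−0.15 to 0.23). Across the 16 clusters the ratio ran from −0.67 to 0.20 with a median of −0.22, and the interval lay below 0 in 10 clusters and above 0 in 1. Only cluster 13, an unnamed cluster with Plin2 and Pparg among its top genes, passed 1.5-fold, from 129 to 81.1 CPM, and its ratio was −0.40 at under 5% mitochondrial UMIs.

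Keap1, the inhibitor of NRF2, was higher in several epithelial clusters. In HF-SC-like cells it had 39 UMIs in the control and 75 in the induced library, with a log2 ratio of 1.13 (0.56 to 1.74) that ranked 154 from the top of 9109 genes. It was above 0 in 14 of 16 clusters and past 1.5-fold in 5 (beside 9.97% of gene and cluster pairs over all genes), up to 1.15 in IFE suprabasal-like cells. Its ratios were not recomputed under the alternatives. Its ratio was 0.66 (0.02 to 1.33) in cluster 7 and 0.70 (0.25 to 1.15) in interfollicular epidermis (IFE) basal-like cells. Bach1, the repressor that competes with NRF2 and above all holds Hmox1 down, passed 1.5-fold in 0 of 16 clusters, with ratios from −0.53 to 0.09. In HF-SC-like cells 1 of 12 regulators tested was at least 1.5-fold higher, Keap1, a share near the 10.2% of all genes. There 0 regulators were lower (beside 7.66%).

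Gpx2 (ENSMUSG00000042808, chr12:76792335-76795554), an epithelial glutathione peroxidase, was rare in the control and more frequent in the induced library. Over all kept cells it had 15 UMIs in 14 of 3936 control cells and 125 UMIs in 87 of 3628 induced cells, a log2 ratio of 3.17 (2.44 to 4.10). Pooled over the epithelial clusters the level was 0.323 CPM (0.181 to 0.533) against 3.01 CPM (2.49 to 3.61), and the log2 ratio of 3.18 ranked 28 from the top of 13132 genes, of which 8.95% were at least 1.5-fold higher. UMIs were found in 6 control clusters and 13 induced clusters.

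The difference did not rest on 1 cluster. Cluster 1, an unnamed epithelial cluster led by Gjb2, was the only one with enough UMIs for a comparison on its own, with 6 in the control and 33 in the induced library and a log2 ratio of 2.72 (1.54 to 4.36). Without cluster 1 the log2 ratio over kept cells was 3.42 (2.50 to 4.66). HF-SC-like cells had 2 and 13 UMIs, a log2 ratio of 2.63 (0.75 to 6.09), and upper HF-like cells had 1 and 15, 3.44 (1.28 to 9.37). In the inner bulge-like cluster the counts were 0 and 13, or 1.88-fold higher at the least when 3 UMIs are set as the floor of that library, and in cluster 8 they were 0 and 7, at least 1.86-fold higher. In cluster 7 they were 0 and 19, at least 5.36-fold higher, but 5 cells held 89.5% of the 19 UMIs. The single cell with the most held 12 UMIs.

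At equal depth the picture was thinner. After every cell was thinned to 5000 UMIs, a Gpx2 UMI was seen in 2 of 387 control cells of cluster 1, or 0.517% (0.0626 to 1.85), and in 9 of 265 induced cells, or 3.40% (1.56 to 6.35). Before thinning the shares were 1.52% and 9.19%. Fibroblast-like cells, which should lack this epithelial gene, had 0 of 111 and 0 of 150 thinned cells, which allows shares of cells with a UMI of up to 2.70% and 2.00% (3 cells of the total). Median depths before thinning were 11964 and 13587.5 UMIs in cluster 1 and 11278.5 and 10932 in fibroblast-like cells. Among cells with under 5% mitochondrial UMIs the pooled epithelial log2 ratio was 2.31 on 52 UMIs.

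**Figure D2:**
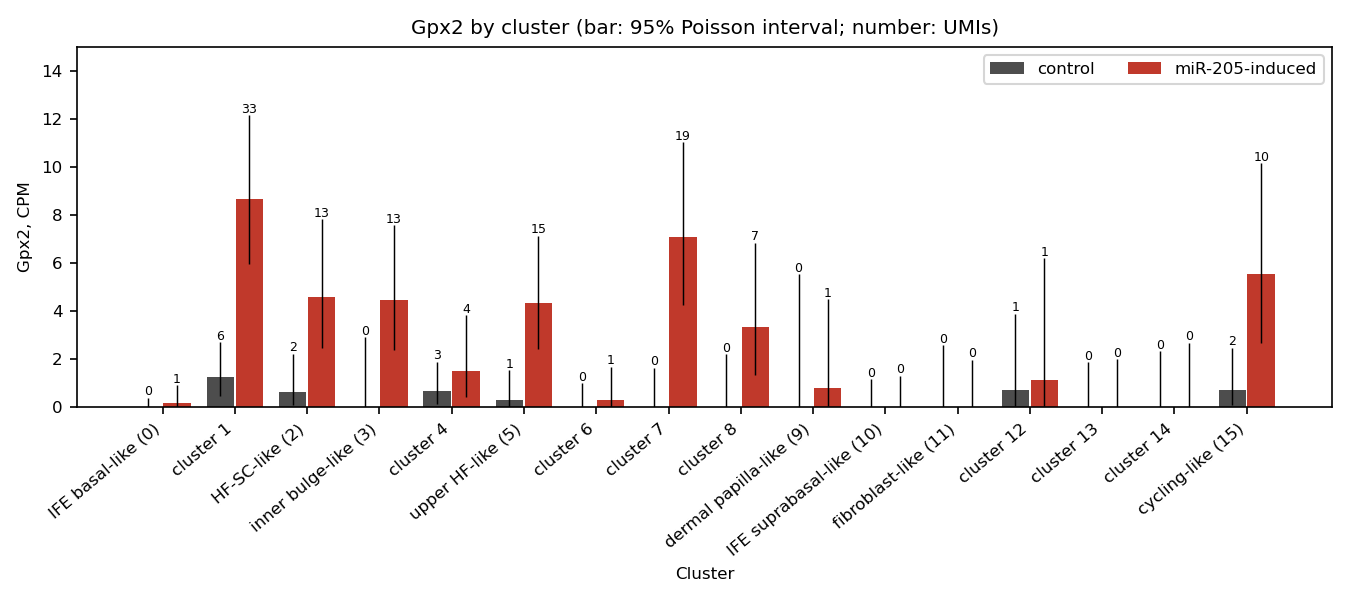
Gpx2 level in CPM in each of the 16 clusters for the control (grey) and miR-205-induced (red) library, with 95% Poisson intervals as lines and the number of UMIs above each. Induced bars are higher in clusters 1, 2, 3, 5, 7, 8 and 15, and the clusters with 0 UMIs in both libraries include the fibroblast-like cluster.

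Gclc and Gclm encode the catalytic and the modifier subunit of glutamate-cysteine ligase, which makes the first step of glutathione synthesis. Gclc (ENSMUSG00000032350, chr9:77754535-77794489) was higher in HF-SC-like cells than in any other of the 16 clusters, at 174 CPM (160 to 189) in the control and 204 CPM (188 to 222) in the induced library. The next control cluster, dermal papilla-like, was at 80.9 CPM, and its interval did not reach that of HF-SC-like cells. The log2 ratio of Gclc in HF-SC-like cells was 0.24 (0.07 to 0.41), and 5 cells held 24.8% of its control UMIs and 32.7% of its induced UMIs there. In cluster 7 it was lower in the induced library, at 79.2 and 55.8 CPM with a log2 ratio of −0.50 (−0.83 to −0.18).

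Past 1.5-fold, Gclc was higher in cluster 13 (74.7 to 132 CPM, log2 0.82, interval 0.52 to 1.12) and in cluster 12 (21 and 23 UMIs, log2 0.80, interval −0.12 to 1.73). It was lower in fibroblast-like cells, from 73.4 to 39.4 CPM (log2 −0.89, interval −1.35 to −0.45). The value in cluster 13 turned to −0.13 among cells with under 5% mitochondrial UMIs, and after thinning both higher values were under 1.5-fold (0.42 in cluster 13 and 0.43 in cluster 12). Gclm (ENSMUSG00000028124, chr3:122245487-122267215) was highest in cluster 13 at 177 CPM, followed by cluster 7 at 142 and dermal papilla-like cells at 141, which overlapped. It was lower past 1.5-fold in dermal papilla-like cells (141 to 89.9 CPM, log2 −0.65), in cluster 12 (log2 −0.67) and in cluster 14 (log2 −0.70 on 23 and 12 UMIs), of which cluster 12 was at −0.24 at under 5% mitochondrial UMIs and the others at −0.58 under an alternative each. In HF-SC-like cells its log2 ratio was −0.37 (−0.68 to −0.08), while the Gclc value there was 0.08 (−0.13 to 0.28) without the 5 highest cells per library and −0.35 with cells set by marker UMIs.

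Txn1 (ENSMUSG00000028367, chr4:57943373-57956411) encodes thioredoxin, the small protein that reduces disulfides, and Txnrd1 (ENSMUSG00000020250, chr10:82833951-82897724) encodes the reductase that recharges it with NADPH. Txn1 was highest in inner bulge-like cells at 1282 CPM (1220 to 1345) in the control, then in HF-SC-like cells at 918 CPM (885 to 952), with no overlap between them or with the next cluster, cycling-like, at 584. In the induced library these were 1040 CPM (1004 to 1078) and 1078 CPM (1041 to 1117), so the 2 clusters overlapped. The log2 ratio was −0.30 (−0.39 to −0.21) in inner bulge-like and 0.23 (0.16 to 0.31) in HF-SC-like cells. With cells set by marker UMIs these were 0.46 and 0.02, so the direction in inner bulge-like cells turned. That set held partly other cells. Of its 108 control and 193 induced cells, 32 and 114 lay in the inner bulge-like cluster of 169 and 380 cells. No cluster passed 1.5-fold, and ratios ran from −0.39 in cluster 7 to 0.24 in IFE basal-like cells.

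Txnrd1 had another distribution. It was highest in the dermal papilla-like cluster at 533 CPM, then in fibroblast-like cells at 262, and lowest in inner bulge-like cells at 29.8, where Txn1 was highest. In HF-SC-like cells it was at 105 CPM (94.2 to 117) in the control and 71.5 CPM (62.0 to 82.0) in the induced library, a log2 ratio of −0.56 (−0.81 to −0.30). The interval lay below 0 in 6 clusters and above 0 in cluster 1, at 0.25 (0.11 to 0.39), and 0 clusters passed 1.5-fold. The only gene whose level followed any of the 10 at r of 0.9 or more was Errfi1, which encodes an inhibitor of the EGF receptor, with Txnrd1 (Pearson r = 0.904 over 32 points, 16 clusters in 2 libraries that share depth and cell type between points).

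Prdx1 (ENSMUSG00000028691, chr4:116685599-116700000), a peroxiredoxin that removes hydrogen peroxide with electrons from thioredoxin, was lower in the induced library in 16 of 16 clusters, and its interval lay below 0 in 15 of them. The ratio ran from −0.65 in cluster 7 to −0.07 in fibroblast-like cells. Over the alternatives it ran from −0.25 to 0.03 in inner bulge-like cells, so it did not stay below 0 there. Of 5343 genes tested in all 16 clusters, 44 (0.824%) were below 0 in every one and 59 (1.1%) were above 0 in every one. Pooled over epithelial clusters Prdx1 was at 935 CPM (927 to 944) in the control and 766 CPM (757 to 775) in the induced library, a log2 ratio of −0.29 (−0.31 to −0.27). Only cluster 7 passed 1.5-fold, from 993 to 633 CPM. Its levels spread little, with the highest control cluster (cycling-like, 1370 CPM) 2.52 times the lowest (fibroblast-like, 544 CPM).

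Srxn1 (ENSMUSG00000032802, chr2:152105524-152111376) encodes sulfiredoxin, which repairs peroxiredoxins that hydrogen peroxide has overoxidised. It had the most lower values of the 10 genes, past 1.5-fold in 7 of 14 clusters, each with an interval below 0 before any cells were left out. In dermal papilla-like cells it went from 168 CPM (138 to 202) in the control to 65.8 CPM (52.4 to 81.7) in the induced library, the lowest ratio of the set at −1.35 (−1.78 to −0.93). In IFE basal-like cells it was at 25.9 and 13.2 CPM, −0.97 (−1.35 to −0.61), and in HF-SC-like cells at 60.5 and 38.0 CPM, −0.67 (−1.02 to −0.33). Inner bulge-like (−0.80), IFE suprabasal-like (−0.77), fibroblast-like (−0.59) and cluster 13 (−0.92) were the others. Srxn1 was above 0 in 5 of 14 clusters, with the interval above 0 in 2. Cluster 6, with the highest induced level, was at 72.4 CPM in the control and 86.1 CPM in the induced library. Only cluster 1 was higher past 1.5-fold, with 32.1 CPM in the control and 49.6 CPM in the induced library (0.63, interval 0.31 to 0.94). Several of these depended on the cells used. The inner bulge-like value was −0.00291 with cells set by marker UMIs, the fibroblast-like value −0.26 (−0.89 to 0.37) without the 5 highest cells, the HF-SC-like value −0.50 after thinning and the cluster 1 value 0.49 without the 5 highest cells. In cluster 13 the value turned to 0.15 among cells with under 5% mitochondrial UMIs.

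Nqo1 (ENSMUSG00000003849, chr8:107388225-107403205), the quinone reductase most used as a readout of NRF2, was sparse. It had 509 UMIs in kept control cells and 360 in kept induced cells, or 10.1 and 7.94 CPM, a log2 ratio of −0.34 (−0.54 to −0.15). It was below 0 in 11 of 12 clusters tested, past 1.5-fold in IFE basal-like (36 and 12 UMIs, −0.88), upper HF-like (55 and 34 UMIs, −0.61), cycling-like (36 and 11 UMIs, −0.97) and cluster 13 (29 and 17 UMIs, −0.65), although of these only the cycling-like interval stayed below 0, at −2.13 to −0.0044. The first 3 each fell under 1.5-fold in an alternative, to −0.34 (IFE basal-like) and −0.45 (upper HF-like) with cells set by marker UMIs and to −0.31 (cycling-like) at under 5% mitochondrial UMIs. Cluster 7 was the exception, with 19 UMIs in the control and 45 in the induced library and a log2 ratio of 0.98 (0.20 to 1.86). HF-SC-like cells had 35 and 26 Nqo1 UMIs, −0.23 (−1.02 to 0.54), a difference not detectable at this depth.

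Hmox1 (ENSMUSG00000005413, chr8:75093618-75100593) encodes heme oxygenase 1, which breaks down heme and is induced by NRF2 and by release of BACH1. In the control it was at 641 CPM (600 to 684) in fibroblast-like and 597 CPM (540 to 659) in dermal papilla-like cells, which overlapped, then at 318 CPM (293 to 343) in cluster 13, and at 79.0 CPM or less in the other 13 clusters. Its UMIs were unevenly spread over cells, with 5 cells holding 39.8% of control and 43.1% of induced UMIs in the HF-SC-like cluster.

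Hmox1 was lower past 1.5-fold in 6 of 16 clusters and higher in 1. In HF-SC-like cells it was at 36.3 CPM in the control and 20.4 CPM in the induced library, a log2 ratio of −0.82 (−1.31 to −0.36), and −0.90 (−1.56 to −0.30) without the 5 highest cells of each library. In fibroblast-like cells it went from 641 to 375 CPM, −0.77 (−0.92 to −0.63), and −0.54 with cells set by marker UMIs. Cluster 6 (−0.84), cluster 12 (−0.83), inner bulge-like cells (−0.60, interval −1.19 to 0.02) and cluster 14 (−0.69 on 34 and 18 UMIs) were the others. Cluster 14 was at −0.62 (−2.23 to 0.77) without the 5 highest cells and at −0.577, under 1.5-fold, in an alternative. The value in cluster 6 was −0.29 without the 5 highest cells, clusters 6 and 12 came close to 0 as means over cells (0.08 and 0.02) and fell under 1.5-fold after thinning (−0.30 and −0.49), and the inner bulge-like value became 0.40 when cells were set by marker UMIs without clustering. In cluster 1 the ratio was 0.51 (0.30 to 0.72), and 0.24 (−0.02 to 0.50) without the 5 highest cells.

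**Figure D3:**
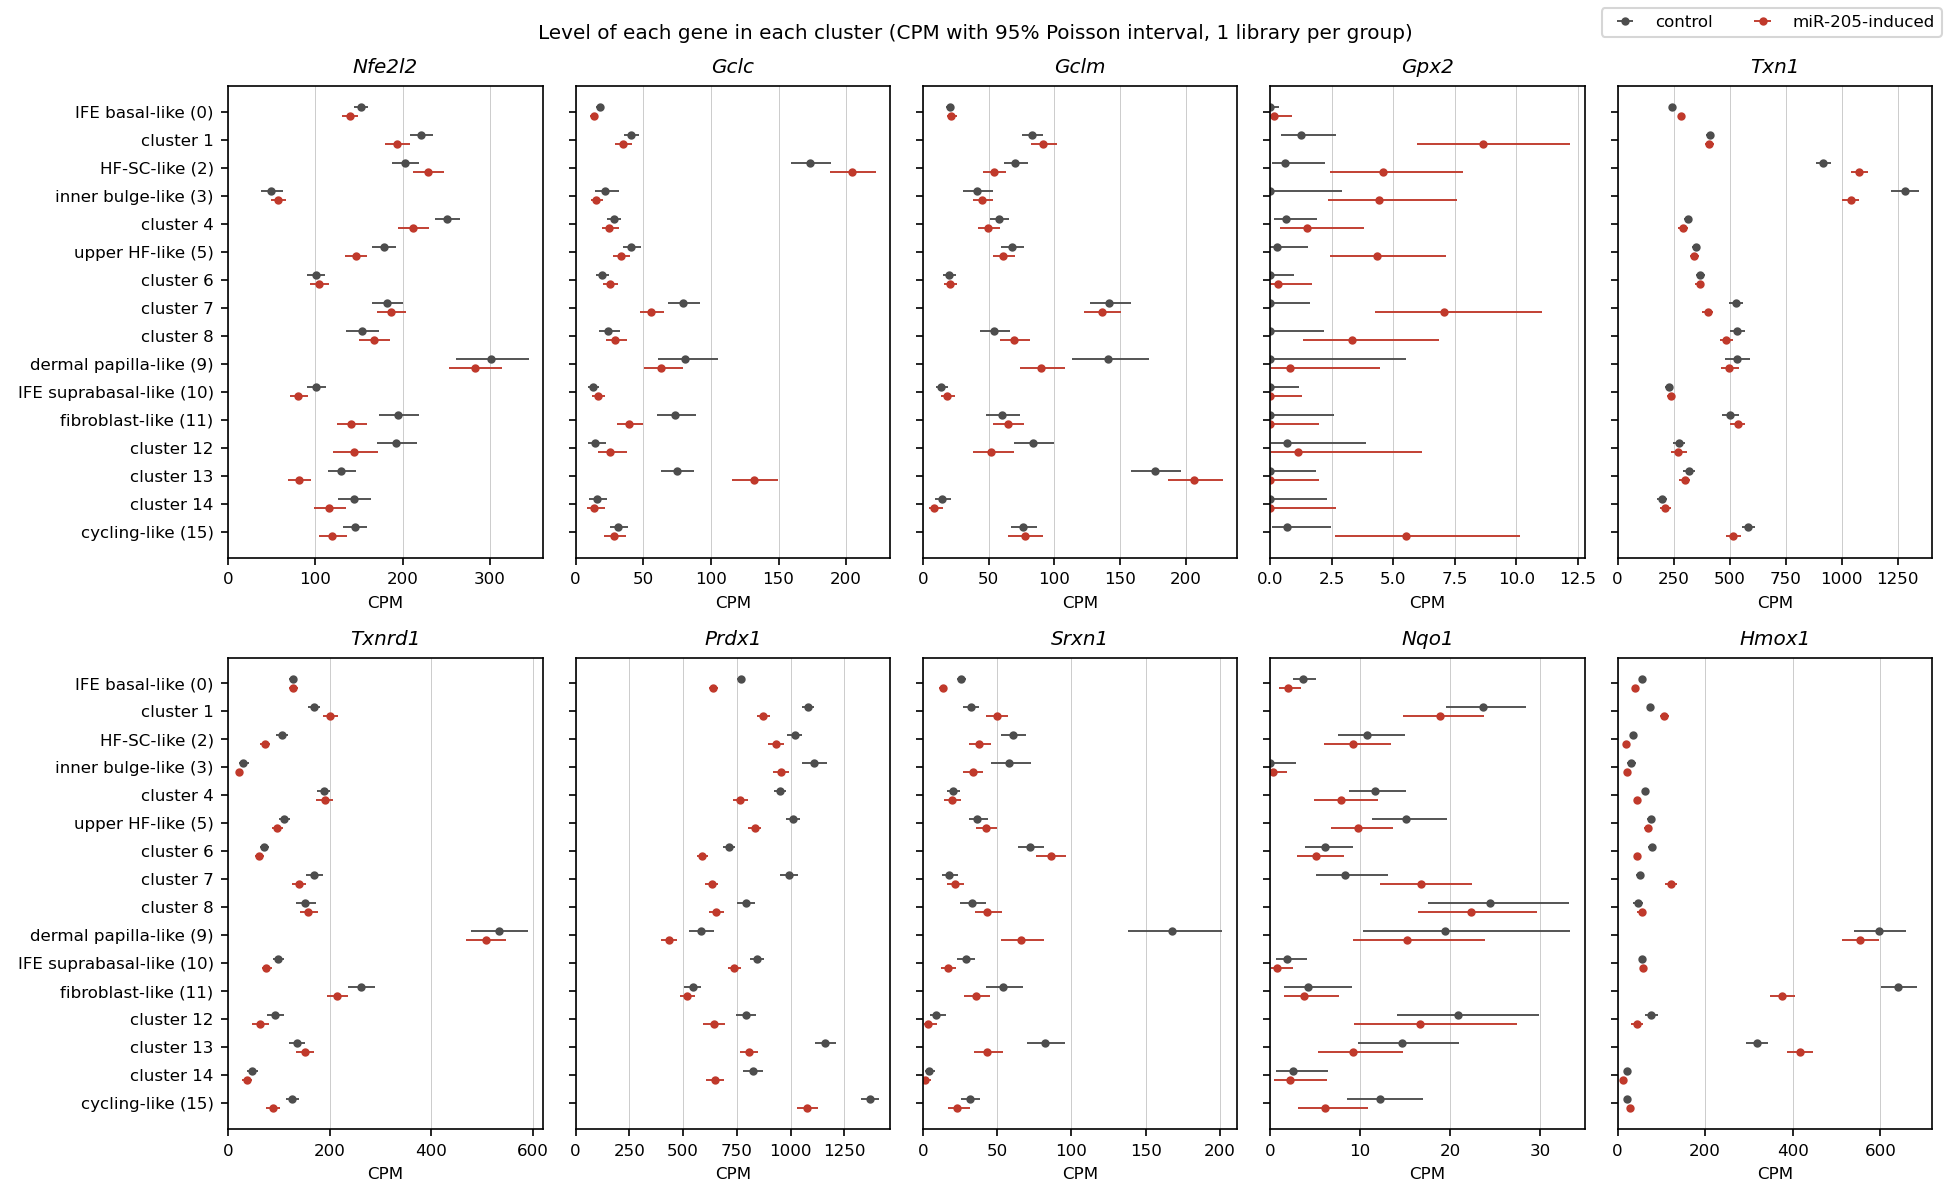
Level of each of the 10 genes in CPM (horizontal axes, one per gene) in the 16 clusters (rows) for the control (grey) and miR-205-induced (red) library, with 95% Poisson intervals. Gclc peaks in HF-SC-like cells, Txn1 in inner bulge-like and HF-SC-like cells, and Hmox1 in fibroblast-like, dermal papilla-like and cluster 13 cells.

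HF-SC-like cells and cluster 7, both with Lhx2 and Lgr5 raised, are set side by side here, although what cells cluster 7 holds was not settled. In HF-SC-like cells 0 of 9 genes tested were at least 1.5-fold higher (beside 10.2% of 9109 genes) and 2 were lower (beside 7.66%), Hmox1 and Srxn1. In cluster 7, 2 of 9 were higher (beside 15.4% of 9087 genes), Hmox1 and Nqo1, and 1 was lower (beside 8.78%), Prdx1. The median ratio was −0.23 for the former and −0.06 for the latter, beside 0.03 for all genes in each.

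Hmox1 in cluster 7 was at 50.6 CPM (41.8 to 60.7) in the control and 121 CPM (108 to 135) in the induced library, a log2 ratio of 1.25 (0.95 to 1.58). That value rested on few cells, since 5 of 208 induced cells held 71.1% of the 325 UMIs and without the 5 highest cells of each library it was 0.21 (−0.26 to 0.68). Among cells with under 5% mitochondrial UMIs the direction turned, to −0.85 on 43 UMIs, and the median of the 8 genes still tested was −0.70. The 5 cells held 3.07% of all UMIs of the cluster, 61.9% of its Acta2 (smooth muscle actin, in 3 of the 5 cells), 105 of its 210 Slpi UMIs and 0.8% of its Lgr5, as seen after the values were known. They carried Krt5 and Krt14 UMIs and had a median of 14576 UMIs, beside 11981 in the other 203 cells. Srxn1 had a ratio of 0.29 (−0.31 to 0.91), which became −0.65 without its own 5 highest cells. These were mostly other cells, since the 5 cells with the most Hmox1 held 11 of its 58 induced UMIs.

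Nqo1 in cluster 7 did not follow these cells. They held 4.44% of its 45 induced UMIs, and without its own 5 highest cells in each library its ratio was 1.30 (0.32 to 2.48). It was 0.33 on 26 UMIs after thinning to 5000 UMIs per cell, which is under 1.5-fold. Aldh3a1, an aldehyde dehydrogenase that NRF2 and the aryl hydrocarbon receptor both induce, had no UMI in them. It was at 18.5 CPM in the control and 43.5 CPM in the induced library in cluster 7 (log2 1.23, interval 0.72 to 1.78) and at 8.30 and 55.6 CPM in HF-SC-like cells (log2 2.72, interval 2.15 to 3.39), the 8th highest of 9109 genes there. These were the only 2 of 14 clusters in which Aldh3a1 passed 1.5-fold. It was below 0 in 5, down to −0.47, and the pooled epithelial ratio was 0.28.

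Genes that respond to tissue dissociation also differed between the libraries, in directions that varied by cluster. Of 15 dissociation genes such as Fos and Hspa1a, 10 were higher past 1.5-fold (beside 15.4% of all genes) and 1 lower (beside 8.78%) in cluster 7. Their median there was 0.77, and their summed level was 9014 CPM in the control and 15464 CPM in the induced library. In HF-SC-like cells 1 of 15 was higher (beside 10.2%) and 0 lower (beside 7.66%), with a median of 0.32 and summed levels of 24140 and 29806 CPM. There 14 of the 15 were above 0, while Hmox1 and Srxn1 were lower past 1.5-fold. In cluster 12 and cycling-like cells the dissociation medians were 0.44 and 0.42, and those of the tested genes among the 10 were −0.36 and −0.28. In dermal papilla-like cells 0 of 15 were higher (beside 10.2%) and 4 lower (beside 13.6%), with a median of −0.32 beside −0.35. Over the 16 clusters the sum ran from 5551 to 24140 CPM in the control and from 5931 to 29806 CPM in the induced library. Their part in the differences of the 10 genes was not tested.

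**Figure D4:**
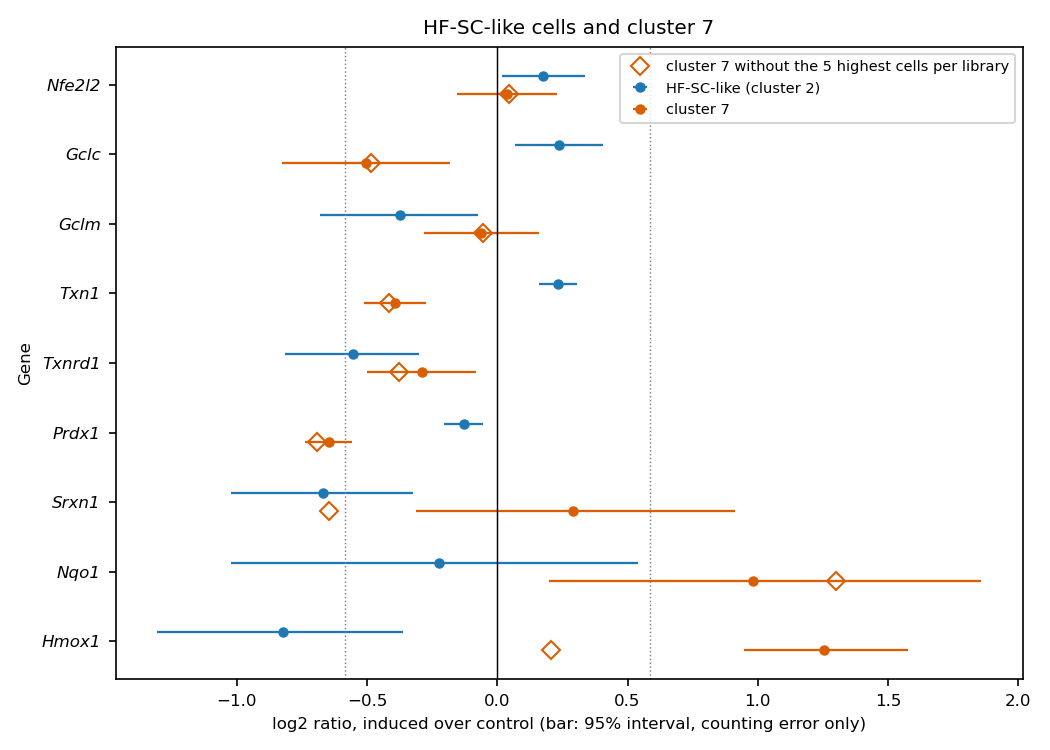
Log2 ratio of induced over control for 9 of the 10 genes in HF-SC-like cells (blue) and cluster 7 (orange), with 95% intervals for counting error, and for cluster 7 without the 5 highest cells per library (open diamonds). Dotted lines mark 1.5-fold. Hmox1 in cluster 7 moves from 1.25 to 0.21 without those cells, while Nqo1 stays at 0.98 or above.

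Other epithelial clusters with at least 2 of the 10 genes past 1.5-fold were read against the same background. Inner bulge-like cells had 0 of 8 higher (beside 11% of 8121 genes) and 2 lower (beside 5.96%), Hmox1 and Srxn1. Cluster 12 had 1 of 8 higher (beside 12% of 7435 genes), Gclc, and 2 lower (beside 9.12%), Hmox1 and Gclm. Cluster 14 had 0 of 7 higher (beside 8.71% of 8040 genes) and 2 lower (beside 7.95%), Hmox1 and Gclm. IFE basal-like cells had 0 of 9 higher (beside 7.63% of 9940 genes) and 2 lower (beside 5.44%), Srxn1 and Nqo1. Cluster 1 had 2 of 10 higher (beside 7.32% of 9321 genes), Gpx2 and Srxn1, and 0 lower (beside 5.56%). Cluster 13 had 1 of 9 higher (beside 10.6% of 8098 genes) and 3 lower (beside 10.4%). Its members therefore split, with Gclc higher and Srxn1, Nqo1 and Nfe2l2 lower.

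Lower values were also found in the dermal clusters, outside the epithelium in which the Krt14 promoter drives the transgene. Dermal papilla-like cells had 0 of 9 higher (beside 10.2% of 7016 genes), 2 lower (beside 13.6%), Srxn1 and Gclm, and all 9 tested below 0, with a median of −0.35 beside −0.06 for all genes. Fibroblast-like cells had 0 of 8 higher (beside 13.6% of 8570 genes) and 3 lower (beside 6.23%), Gclc, Hmox1 and Srxn1, with a median of −0.38 beside 0.08. With 1 mouse per group, a difference between these mice and an effect of the transgene cannot be told apart.

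The wider antioxidant and detoxification genes, 85 in 8 lists, had similar counts of higher and lower pairs in the same clusters. Of 1109 gene and cluster pairs, 107 were at least 1.5-fold higher (9.65%, beside 9.97% of pairs over all genes) and 112 lower (10.1%, beside 7.34%). The higher share was thus near that of all genes and the lower share above it. The median was 0.02, as for all genes. In HF-SC-like cells 6 of 67 tested were higher (beside 10.2% of all genes) and 7 lower (beside 7.66%). In cluster 7, 12 of 70 were higher (beside 15.4%) and 7 lower (beside 8.78%), so these shares lay near those of all genes.

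Past 1.5-fold, glutathione genes were more often lower than higher in each of the 16 clusters except the dermal papilla-like one. There 2 of 14 were higher (beside 10.2% of all genes) and 1 lower (beside 13.6%). In HF-SC-like cells 0 of 14 were higher past 1.5-fold (beside 10.2% of all genes) and 4 were lower (beside 7.66%), and in cluster 7 2 of 15 were higher (beside 15.4%) and 3 lower (beside 8.78%). Mgst1, a microsomal transferase, went from 190 to 23 UMIs in HF-SC-like cells (log2 −2.82, interval −3.54 to −2.22). It was at 0.86 (0.14 to 1.66) in cluster 7, where 5 cells held 64.0% of its induced UMIs. Gstm2 was lower past 1.5-fold in 15 of 15 clusters tested, with a median of −1.21, and HF-SC-like cells were at −1.79 (−2.24 to −1.38). Gstp1 was below 0 in 16 of 16 clusters and past 1.5-fold in 14, with a median of −0.93. Gstm2 and Gstp1 have near-identical paralogs with which reads can be shared, so their values are uncertain. Gpx8, an endoplasmic reticulum peroxidase, was below 0 in 15 of 15 clusters with a median of −0.84. Slc7a11, the cystine carrier that feeds glutathione synthesis, was below 0 in 8 of 8 and Gpx1, the main cytosolic peroxidase, was above 0 in 16 of 16 with a median of 0.28, both named after their values were seen.

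Of thioredoxin pathway genes, 4 of 18 were higher past 1.5-fold in HF-SC-like cells (beside 10.2% of all genes) and 0 lower (beside 7.66%), among them Txnip, which binds and inhibits thioredoxin, at 56.5 and 106 CPM (log2 0.90, interval 0.63 to 1.17), and the mitochondrial peroxiredoxin Prdx3 (0.65, interval 0.14 to 1.17). Txnip was above 0 in 15 of 16 clusters and past 1.5-fold in 10, with 1.88 (1.58 to 2.19) in cluster 7. The glutaredoxin gene Glrx was past 1.5-fold in 10 of 13 clusters, with 1.22 (0.62 to 1.84) in IFE basal-like and 1.03 (0.41 to 1.71) in cluster 7. In cluster 7, 3 of 17 were higher, a share near the 15.4% of all genes, and 1 lower (beside 8.78%), Sesn2 (−0.62), a stress sensor. In IFE basal-like cells 3 of 18 were higher (beside 7.63% of all genes) and 1 lower (beside 5.44%), Msra (−0.74), which repairs oxidised methionine.

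The remaining lists were mixed. Of genes that supply NADPH, 0 of 4 were past 1.5-fold in HF-SC-like cells (beside 17.8% of all genes in either direction). Idh1 was higher (0.99) and Pgd lower (−0.88) in cluster 7. Of heme and iron genes, Hmox2, the constitutive heme oxygenase, was lower in HF-SC-like cells (−0.60, interval −1.34 to 0.09) and higher in cluster 7 (0.77, interval 0.18 to 1.40), where Blvrb, a biliverdin reductase, was also higher (0.63). Of superoxide and peroxide genes 0 of 4 passed 1.5-fold in HF-SC-like cells (beside 17.8% of all genes in either direction) or in cluster 7 (beside 24.1%). Their median was 0.43 in HF-SC-like cells. Of detoxification genes, the aldo-keto reductase Akr1b8 was below 0 in 11 of 11 clusters with a median of −0.90, the carbonyl reductase Cbr3 was higher in IFE basal-like cells (0.63, interval −0.001 to 1.26), Mgst2 of the glutathione list was higher there (1.04), and the exporter Abcc5 was higher in cluster 7 (0.71). Epgn, an EGF family ligand with raised expression in skin with activated NRF2, was lower in HF-SC-like (−0.70), cluster 7 (−1.05) and IFE basal-like cells (−0.59). Slpi, a protease inhibitor of the same response, was at 0 UMIs in the control and 210 in the induced library in cluster 7, or at least 59.2-fold higher there, but 5 cells held 100% of them. Targets of ATF4, given beside these lists, share Slc7a11 and Sesn2 with them. In HF-SC-like cells 0 of 9 of these targets were higher (beside 10.2% of all genes) and 4 lower (beside 7.66%). In cluster 7, 1 of 8 was higher (beside 15.4%) and 4 lower (beside 8.78%).

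**Figure D5:**
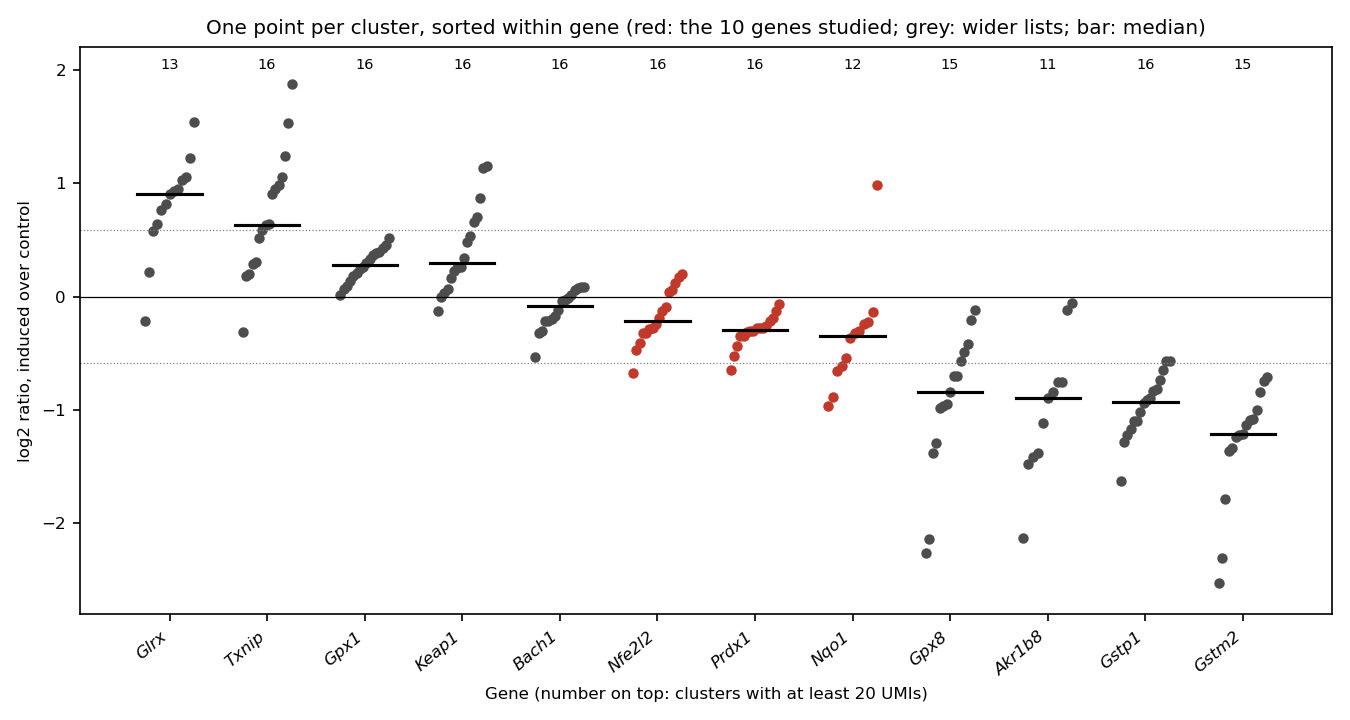
Log2 ratio of induced over control (vertical axis) with 1 point per cluster, sorted within each gene, for 3 of the 10 genes (red) and 9 genes of the wider lists (grey). Bars are medians, dotted lines mark 1.5-fold and the number on top gives the clusters tested. Gstm2, Gstp1, Akr1b8 and Gpx8 lie below 0 in all their clusters, as does Prdx1, and Gpx1 lies above.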

How the data were processed

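Dissociated back skin of 1 control and 1 miR-205 inducible mouse was profiled by single-cell RNA-seq. The authors used Cell Ranger for UMI counts of each gene in each barcode (3.0.1 per the file headers, build mm10 per the submitters' processing notes) and deposited raw counts without normalization. Genes were looked up by symbol, and no gene of the lists was among the 36 repeated symbols. Only reads placed uniquely are counted by this tool, so genes with near-identical copies can lose reads. Gene positions, promoters and the microRNA are from RefSeq (GRCm38.p6) and 3′ UTRs, the longest per gene, from GENCODE vM1 (NCBIM37). The 10 genes, the gene lists and the marker lists were chosen with earlier results of these data known.

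Cells with over 200 and under 5000 genes and under 10% mitochondrial UMIs were kept, which is the filter the study states. Libraries were joined by Seurat integration (version 5.3.0, R 4.3.3, 2000 variable genes, 30 dimensions, resolution 0.8), and the 121 genes of the lists were withheld from clustering. A cluster was named where at least 3 and at least 0.5 of the markers of a class were raised at least 2-fold over the other cells, with at least 20 UMIs and in at least 10% of cells, and no other class had more markers among the top 10 genes. This rule was set after the data were seen. Doublets were not removed. Scrublet (scanpy 1.11.5) marked only 4 control and 5 induced barcodes, so its threshold had not worked, and leaving out the 165 and 145 highest-scoring barcodes was tried as an alternative.

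UMIs were summed per library and cluster (Python 3.11.15, scipy 1.17.1). Ratios use a pseudocount of 0.5 UMIs, at least 20 UMIs over both libraries, and exact 95% binomial or Poisson intervals, which cover counting error only, as p-values need replicates. Shares of cells have exact Clopper-Pearson intervals after thinning to 5000 UMIs. This dropped 304 shallower cells of the control and 328 of the induced library. Where a library was at 0, folds are bounds against a floor of 3 UMIs. Alternatives were other scalings, cell filters, UMI minimums, a 2-fold limit, thinned counts, a pseudocount of 1 UMI and cells set by marker UMIs without clustering. The sets by marker UMIs overlap the clusters of the same name only in part. Leaving out the 5 cells with the most UMIs of a gene, or cluster 1 for Gpx2, was added after the data were seen. The ratio and interval step was tested on simulated data. Named genes were the 10, from each wider list up to 2 genes in each direction with at least 50 UMIs and past 1.5-fold in HF-SC-like cells, cluster 7 or IFE basal-like cells, and Keap1, Bach1 and Aldh3a1. Genes were called alike from log2(CPM + 10) at r of at least 0.9.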

Additional observations from a re-analysis of the deposited data

Results flagged for a closer look

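Among the 10 genes, 4 were past 1.5-fold in opposite directions in different clusters of the same pair of libraries. With 1 library per group, the difference between clusters was not tested in any of them. Hmox1 was highest in cluster 7 (1.25) and lowest in cluster 6 (−0.84), which are 2.10 apart on the log2 scale. Srxn1 was 1.97 apart between cluster 1 (0.63) and dermal papilla-like cells (−1.35). Nqo1 was 1.95 apart between cluster 7 (0.98) and cycling-like cells (−0.97), on 64 and 47 UMIs. Gclc was 1.71 apart between cluster 13 (0.82) and fibroblast-like cells (−0.89).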

How the results depend on the processing

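No paired analysis was possible because each group has 1 library.
Over the alternatives to the scaling, the cell filter, the doublets and the depth, the 10 genes had 5 to 7 pairs at least 1.5-fold higher and 18 to 26 lower. In the 8 named clusters, cells set by marker UMIs gave 4 higher and 15 lower of 73 pairs, against 0 and 14 of 69 by clusters. Asking for at least 100 UMIs gave 3 higher pairs and at least 1 UMI gave 17, and 2-fold in place of 1.5-fold gave 2 higher and 1 lower. The wider genes gave 44 higher and 58 lower pairs at 100 UMIs and 172 higher at 1 UMI. The pooled epithelial Gpx2 ratio was 2.31 at under 5% mitochondrial UMIs. Median ratios moved to −0.70 in cluster 7 at under 5% mitochondrial UMIs, to 0.12 in cycling-like cells at under 4000 genes per cell, and with cells set by marker UMIs to −0.00807 in upper HF-like and −0.93 in dermal papilla-like cells. Marker UMIs set only 24 control and 61 induced cells as dermal papilla, beside 142 and 221 in the cluster. Past 1.5-fold, the direction turned for Hmox1 in cluster 7 (−0.85), Srxn1 in cluster 13 (0.15) and Gclc in cluster 13 (−0.13) at under 5% mitochondrial UMIs, for Hmox1 in cluster 6 (0.0764) and cluster 12 (0.0234) as means over cells and in cluster 6 (0.0448) at under 4000 genes, and for Hmox1 in inner bulge-like cells (0.40) set by markers. Of 1379 recomputed ratios, 1259 stayed within the interval of the reported value. The causes were not tested. Nqo1 and Gpx2 are limited by depth in most clusters.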

Other observations

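The clusters too small to compare held high levels of several genes. Macrophage-like cells (37 control and 50 induced) had Hmox1, which these cells use to recycle heme iron, at 2553 CPM (2410 to 2703) in the control and 1337 CPM (1238 to 1442) in the induced library. In the latter 5 cells held 59.2% of those UMIs. In endothelial-like cells Hmox1 was at 5888 and 2588 CPM, but these were 7 and 14 cells. Melanocyte-like cells (24 and 29) had Txn1 at 1943 CPM (1664 to 2255) and 980 CPM (840 to 1136). Macrophage-like cells also had Txnrd1 at 501 and 305 CPM and Nfe2l2 at 341 and 225 CPM. Sebaceous gland-like cells (21 and 39) had Gclc at 98.5 and 178 CPM. A second HF-SC-like cluster of 39 and 82 cells had Txn1 at 1086 and 1314 CPM, above every cluster that was compared in the induced library.
Across the 16 compared clusters in both libraries (32 points that share depth and cell type), levels of Hmox1 and Txnrd1 had a Pearson r of 0.744, Txnrd1 and Nfe2l2 of 0.737, and Gclm and Gclc of 0.667, while Hmox1 and Prdx1 had −0.479.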
